A study of Homo sapiens with 29 samples.

Results

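The interferon-stimulated genes ISG15, OASL, IFIT1, IFIT2, IFIT3, MX1, TRIM22 and GBP1 and the interferon regulatory factors IRF1 and IRF7 were followed across every dose of a carcinogen in a human airway cell line. The members were all probe sets whose gene symbol in the array's annotation was one of these names, which gave 17 probe sets for 10 genes, of 54675 probe sets on the array. The cells were BEAS-2B, a human bronchial epithelial line immortalised with a hybrid of adenovirus and SV40, so they carry viral genes in every group. They were exposed for 24 h to N-OH-PhIP, the hydroxylated metabolite of the cooked-meat and tobacco-smoke amine PhIP, and the series sought the dose at which a transcriptional effect appears. All 10 groups, the controls included, held DMSO at 1%. The control group had DMSO alone, and the others had N-OH-PhIP at 0.1, 0.5, 1, 5, 10, 50, 100, 500 or 1000 nM. Each group held 3 arrays from replicate cultures, except 0.5 nM with 2 (replicates 1 and 3), and 29 arrays were analysed. The lowest dose is 0.5 nM in the labels' design text and 0.1 nM in the sample titles, and doses were taken from the titles. All the groups are a single cell line, and nothing in the labels says that the cultures were run on separate days, so p-values measure only the spread between these cultures.

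Interferons are secreted proteins that signal through receptors and the JAK kinases to STAT transcription factors. Type I and III interferons act through a STAT complex that holds IRF9 and binds the interferon-stimulated response element, and interferon gamma acts through STAT dimers that bind gamma-activated sites. Interferon regulatory factors bind the response element as well, and IRF1 and IRF7 are themselves induced. In airway epithelium these genes form a first defence against viruses, and several of them are also known to be inducible without interferon, by IRFs, NF-kB or p53.

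Promoter sequences are shown because they carry the sites named above, by which several members are classed as interferon targets. The RefSeq promoter table (GRCh38.p14), with 250 bases before each start site, held 6 of the 10 genes in 9 entries, and OASL, TRIM22, IFIT2 and IRF7 were not found in it. Both strands were searched for the response element, read as GAAA, any 2 bases and GAAA, and for the gamma-activated site, read as TTC, any 3 bases and GAA. The windows printed run from base -160 to base -41 of the start site, 5′ to 3′ on the gene's strand, with the motif matches in capitals. A response element on the reverse strand reads TTTC, any 2 bases and TTTC.
ISG15, chr1:1013337-1013456, plus strand: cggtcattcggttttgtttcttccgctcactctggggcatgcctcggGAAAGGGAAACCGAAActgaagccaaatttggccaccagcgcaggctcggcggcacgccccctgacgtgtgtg
IFIT1, chr10:89392463-89392582, plus strand: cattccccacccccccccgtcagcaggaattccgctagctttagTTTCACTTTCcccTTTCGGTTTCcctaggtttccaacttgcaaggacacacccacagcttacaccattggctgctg
IFIT3, first entry, chr10:89327837-89327956, plus strand: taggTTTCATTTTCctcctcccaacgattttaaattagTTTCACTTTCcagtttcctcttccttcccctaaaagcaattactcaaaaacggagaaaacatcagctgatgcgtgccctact
IFIT3, the other entry, chr10:89332369-89332488, plus strand: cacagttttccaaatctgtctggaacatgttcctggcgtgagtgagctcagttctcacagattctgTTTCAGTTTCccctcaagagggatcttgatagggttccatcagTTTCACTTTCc
GBP1, chr1:89065249-89065368, minus strand: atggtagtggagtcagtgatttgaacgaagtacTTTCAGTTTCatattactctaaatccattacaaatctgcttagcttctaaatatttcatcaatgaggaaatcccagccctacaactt
IRF1, chr5:132490814-132490933, minus strand: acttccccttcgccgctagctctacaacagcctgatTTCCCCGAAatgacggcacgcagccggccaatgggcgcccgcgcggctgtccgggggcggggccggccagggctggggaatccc

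The response element matched in 7 of the 9 member entries, in 5 of 6 genes, against 3.57% of all 35116 entries and 55.2% of the 58 entries of other interferon-stimulated genes. In ISG15 the matches started at -113 and -107 and overlapped each other. IFIT1 had matches at -116 and -103, the first IFIT3 entry at -156 and -122, the other IFIT3 entry at -94 and -51, and GBP1 a match at -127. MX1 had its matches outside the printed window, at 12 bases past the start in one entry and at -196 in another. IRF1 was the gene without a response element match, and it had a gamma-activated site at -124. That site matched in 2 of the 9 entries (IRF1, and MX1 at -189, overlapping its response element), against 7.66% of all entries. A match is a description of these letters in this window and not a bound site. ISG15, IFIT1 and each IFIT3 entry hold a pair of response element matches.

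Values are linear intensities as deposited, with array medians from 35.8 to 38.4. Tests used log2(intensity + 16), on which changes of dim probe sets are shrunk, in a limma fit of all 10 groups over the 27307 probe sets whose mean reached an intensity of 37.4. Fold changes below are on that scale, and p-values were Benjamini-Hochberg adjusted over those 27307 probe sets with a threshold of 0.05. Of the 17 member probe sets 15 were tested, at least 1 for each of the 10 genes. Each of the 15 reached the minimum in DMSO alone, with a lowest DMSO mean of 42.5 for IFIT3 204747_at. The probe sets IFIT2 217502_at and GBP1 231578_at were under the minimum, at 10.4 to 22.0 and 6.29 to 12.9 over the 29 arrays, and were not tested. Arrays of a group correlated at 0.980 to 0.998, and the lowest value was within 500 nM, where replicate 3 stood apart for several members. All comparisons with DMSO share its 3 arrays. In total RNA of a culture, fewer cells with a transcript and less of it per cell cannot be told apart.

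**Figure D1:**
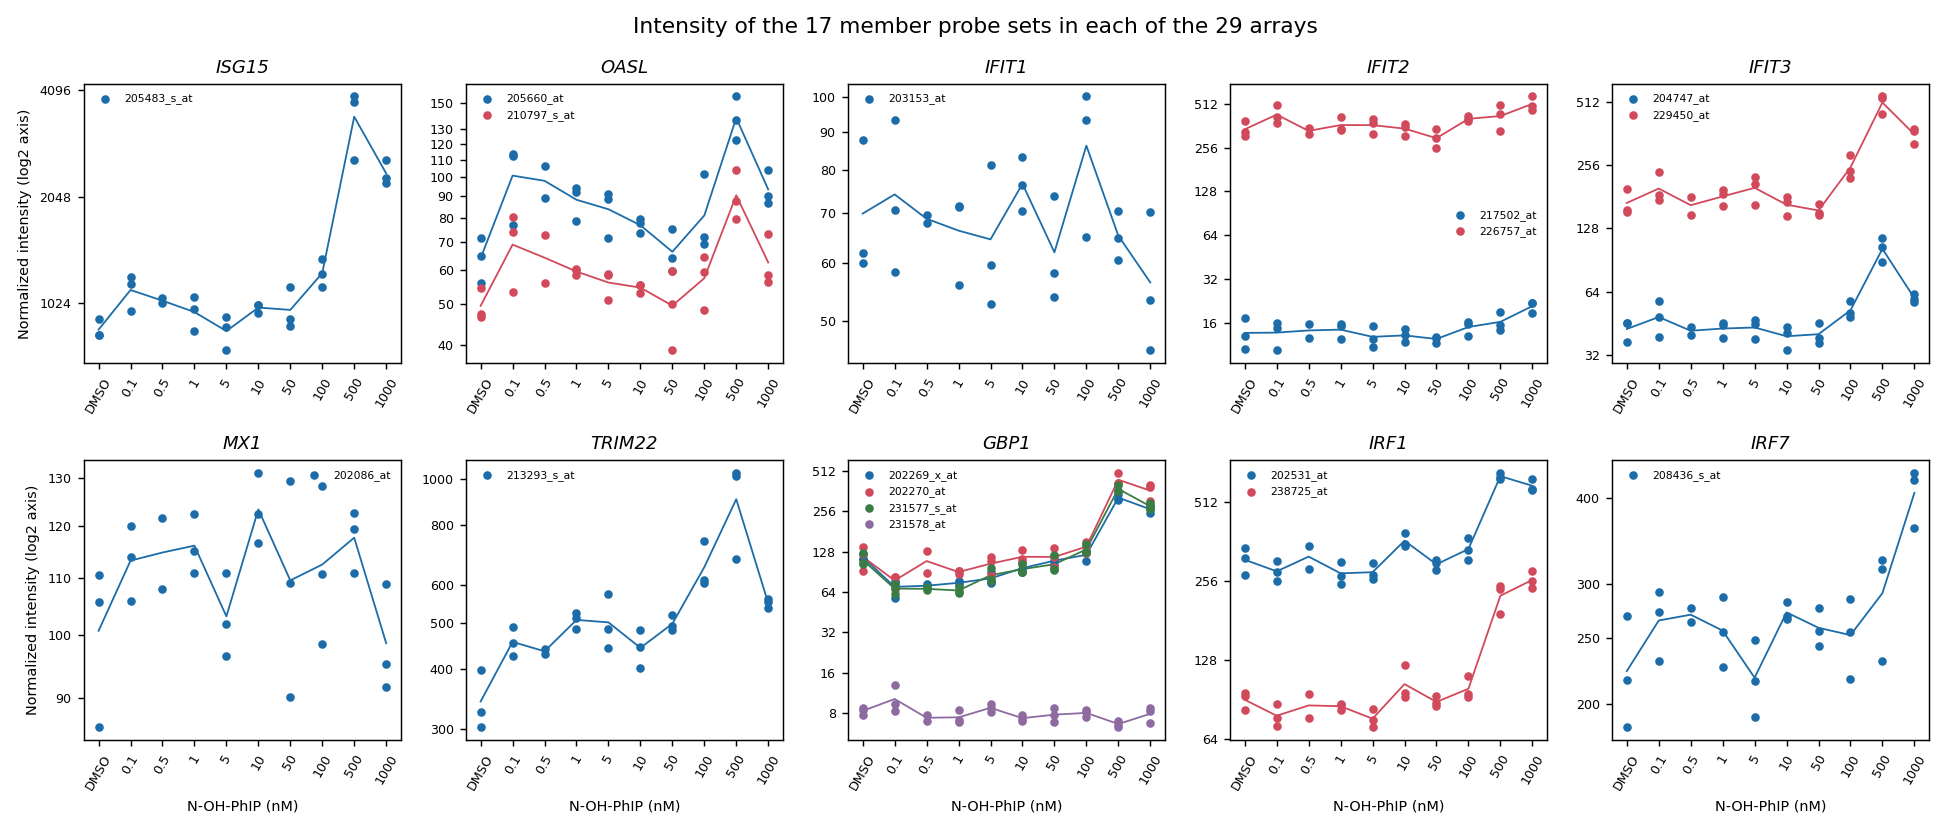
Intensity (log2 axis) of the member probe sets in each array against dose, 1 panel a gene, with points for arrays and lines through group means. The tested probe sets of ISG15, IFIT3, GBP1 and IRF1 are highest at 500 or 1000 nM. At 0.1, 0.5 and 10 nM ISG15 is above DMSO, as is IRF1 202531_at at 10 nM. IFIT3 overlaps DMSO from 0.1 to 50 nM, and the tested GBP1 probe sets have lower means than DMSO from 0.1 to 5 nM. The dim GBP1 231578_at has its highest mean at 0.1 nM. IRF7 is highest at 1000 nM, the DMSO range of IFIT1 overlaps that of every dose, and MX1 at 1, 10 and 500 nM is just above DMSO.

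At the 2 highest doses most members were higher than in DMSO, and none was called lower. Members were chosen with earlier results of these data known, and probe sets of the same gene are not independent. The counts are therefore descriptions and not tests of the group. At 500 nM 12 of the 15 tested probe sets rose, in 7 genes, where 23.1% of all tested probe sets rose and 22.3% fell. At 1000 nM 12 of the 15 rose, in 8 genes, where 28.9% of all tested probe sets rose and 31% fell. The median log2 change of the 15 was 1.02 at 500 nM and 0.83 at 1000 nM, beside 0.01 and -0.01 over all tested probe sets. Among the genes that rose, ISG15 and GBP1 had the largest changes at 500 nM and IFIT1 and MX1 passed the test at neither dose.

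ISG15 is a ubiquitin-like protein that is conjugated to other proteins and is also secreted. Its intensity in DMSO was 832, 834 and 922. At 500 nM it was 3805, 3942 and 2607, and at 1000 nM 2603, 2322 and 2236. Every array of both doses lay above every other array of the study, and the groups did not overlap, although replicate 3 at 500 nM was close to the highest array at 1000 nM. ISG15 rose by 1.96 ± 0.12 (log2, SE), 3.88-fold, at 500 nM (limma, adjusted p = 1.0e-12) and by 1.45 ± 0.12 at 1000 nM (adjusted p = 1.3e-10). Without replicate 3 the change at 500 nM was 2.15 ± 0.11.

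At 100 nM ISG15 was 1136, 1366 and 1237, all above DMSO, with a rise of 0.52 ± 0.12 (limma, adjusted p = 0.015). That call was lost without DMSO replicate 1, DMSO replicate 2 or 100 nM replicate 2, with changes from 0.45 to 0.58 over all its alternatives. From 0.1 to 50 nM its 17 arrays ran from 754 to 1218 and no dose was called. The arrays at 0.1 nM (973 to 1218), 0.5 nM (1023 to 1060) and 10 nM (961 to 1016) lay above all DMSO arrays. Those at 1, 5 and 50 nM overlapped DMSO. The group means were ordered 500, 1000, 100, 0.1, 0.5, 10, 50 and 1 nM, DMSO and 5 nM. Neighbours in that order overlapped, except 500 over 1000 nM, 1000 over 100 nM and 0.5 over 10 nM.

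OASL, a relative of the oligoadenylate synthetases that binds RNA and enhances RIG-I signalling, was measured by a pair of probe sets. For 205660_at the arrays were 56.2, 64.8 and 71.6 in DMSO, 137, 155 and 122 at 500 nM and 104, 86.7 and 90 at 1000 nM. The 500 nM arrays were above every other array for this probe set. It rose by 0.94 ± 0.13 at 500 nM (limma, adjusted p = 1.9e-06) and by 0.45 ± 0.13 at 1000 nM (adjusted p = 0.0048). The other probe set, 210797_s_at, had DMSO arrays of 47.3, 54.6 and 46.5 and 500 nM arrays of 87.7, 104 and 79.7, a rise of 0.70 ± 0.13 (limma, adjusted p = 6.5e-05). At 1000 nM it was at 73.4, 58.5 and 56.2, a difference of 0.26 that was not called (limma, adjusted p = 0.079) unless arrays were median centred. After 500 nM, both OASL probe sets had their next highest mean at 0.1 nM, at 101 ± 20.7 (SD, n = 3) and 69.1 ± 14.1. The differences from DMSO there, 0.53 ± 0.13 and 0.37 ± 0.13, were not called (limma, adjusted p = 0.061 and 0.20).

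The IFIT proteins bind foreign RNA and restrict its translation, and their genes lie side by side on chromosome 10 in the order IFIT2, IFIT3, IFIT1B, IFIT1 and IFIT5. IFIT3 229450_at was at 153, 157 and 197 in DMSO, 532, 542 and 446 at 500 nM and 321, 379 and 371 at 1000 nM. These 3 groups did not overlap, and the 500 nM arrays were the highest of the study. IFIT3 rose 2.83-fold at 500 nM (95% interval of the log2 change 1.24 to 1.76, limma adjusted p = 3.3e-10) and 2.02-fold at 1000 nM (log2 change 1.02 ± 0.13, adjusted p = 1.3e-07). Its dimmer probe set 204747_at, at 45.5, 36.8 and 45.1 in DMSO, rose by 1.01 ± 0.11 at 500 nM and by 0.37 ± 0.11 at 1000 nM. At 100 nM 229450_at was 239, 285 and 223, a rise of 0.52 ± 0.13 (limma, adjusted p = 0.019) that was lost without DMSO replicate 1, DMSO replicate 2 or 100 nM replicate 2. The 204747_at arrays, at 50.5, 57.7 and 48.2 there, were above all DMSO arrays, with a difference of 0.22 that was not called.

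The neighbours of IFIT3 gave other values. IFIT1 203153_at was at 61.9, 59.9 and 87.7 in DMSO, 60.5, 70.4 and 64.7 at 500 nM and 70.1, 45.7 and 53.4 at 1000 nM. These groups overlapped. The log2 difference was -0.07 at 500 nM (95% interval -0.40 to 0.26, adjusted p = 0.76 in limma) and -0.24 at 1000 nM (-0.57 to 0.09, adjusted p = 0.20). The upper bound at 500 nM is below the lower bounds of both IFIT3 probe sets, 0.79 and 1.24. IFIT2 226757_at was at 306, 392 and 327 in DMSO, 433, 334 and 498 at 500 nM and 575, 490 and 466 at 1000 nM. IFIT2 rose by 0.56 ± 0.13 at 1000 nM (limma, adjusted p = 0.00080), where its arrays were above those of DMSO. The difference at 500 nM was 0.28 ± 0.13 (adjusted p = 0.091), and it was called without DMSO replicate 2 or 500 nM replicate 2.

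MX1, a dynamin-like GTPase that blocks influenza and other viruses, was at 85.7, 111 and 106 in DMSO, 123, 111 and 119 at 500 nM and 95.3, 91.7 and 109 at 1000 nM. Neighbours in the order of means overlapped. The highest DMSO array, at 110.6, was below all arrays at 1, 10 and 500 nM, whose lowest values were 110.8, 116 and 110.9, and the other doses overlapped DMSO. MX1 was called at none of these doses, with a difference of 0.26 at 10 nM (limma, adjusted p = 0.29). The log2 difference was 0.20 at 500 nM (95% interval -0.02 to 0.42, adjusted p = 0.13 in limma) and -0.02 at 1000 nM (-0.24 to 0.20, adjusted p = 0.87). Over all 29 arrays MX1 stayed between 85.7 and 131.

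TRIM22, a RING-finger ubiquitin ligase with antiviral activity that is also known as a p53 target, was above DMSO at every dose. Its arrays were 302, 324 and 399 in DMSO, 741, 614 and 605 at 100 nM, 1012, 678 and 1029 at 500 nM and 535, 561 and 552 at 1000 nM. All 26 treated arrays, at 401 to 1029, lay above all 3 DMSO arrays. Replicate 2 at 500 nM fell within the range of 100 nM, and these groups overlapped, while 1000 nM lay below 100 nM without overlap. TRIM22 rose by 0.91 ± 0.12 at 100 nM (limma, adjusted p = 3.3e-05), by 1.35 ± 0.12 at 500 nM (adjusted p = 1.0e-09) and by 0.67 ± 0.12 at 1000 nM (adjusted p = 3.3e-05).

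TRIM22 was also called at 1 nM and at 5 nM. The arrays at 1 nM were 523, 485 and 512 and those at 5 nM 485, 443 and 574, rises of 0.55 ± 0.12 (limma, adjusted p = 0.025) and 0.53 ± 0.12 (adjusted p = 0.029). Both calls were lost without DMSO replicate 1 or 2. The call at 1 nM was also lost without any 1 of its own arrays, with changes from 0.47 to 0.78 over its alternatives, and that at 5 nM without 5 nM replicate 1 or 3, with changes from 0.43 to 0.64. At 0.1, 0.5, 10 and 50 nM the differences ran from 0.34 to 0.53 and were not called, with adjusted p from 0.062 to 0.34 in limma. In the order of TRIM22 means DMSO was last, and the group above it, 0.5 nM at 435, did not overlap it.

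GBP1, a large GTPase that coats bacteria in the cytosol and is a classic target of interferon gamma, moved in both directions with dose. For 231577_s_at the arrays were 103, 106 and 124 in DMSO, 367, 364 and 400 at 500 nM and 279, 294 and 265 at 1000 nM. The groups were separate, with 500 nM highest. The 3 tested GBP1 probe sets rose by 1.36 ± 0.09 (202269_x_at), 1.79 ± 0.14 (202270_at) and 1.63 ± 0.10 (231577_s_at) at 500 nM, 2.57-fold to 3.45-fold. At 1000 nM the rises were 1.09, 1.52 and 1.22 in the same order. The largest of the adjusted p-values from limma over these 6 values was 1.1e-09.

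At the lowest doses GBP1 was below DMSO. Probe set 202269_x_at was at 113, 113 and 124 in DMSO. It was at 77.2, 74.7 and 58.1 at 0.1 nM, 73.2 and 69.5 at 0.5 nM, 76.0, 77.3 and 71.6 at 1 nM and 75.3, 76.6 and 90.6 at 5 nM. None of these 11 arrays reached a DMSO array. The probe set fell by 0.63 ± 0.09 at 0.1 nM (limma, adjusted p = 0.0010), by 0.60 at 0.5 nM (adjusted p = 0.022), by 0.54 at 1 nM (adjusted p = 0.0034) and by 0.46 at 5 nM (adjusted p = 0.013). It returned to 105, 95 and 89.8 at 10 nM, to 118, 110 and 101 at 50 nM and to 108, 126 and 130 at 100 nM, none of these called.

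The other GBP1 probe sets gave part of that pattern. Probe set 231577_s_at fell by 0.60 at 0.1 nM, 0.60 at 0.5 nM and 0.64 at 1 nM (limma, adjusted p = 0.0023, 0.034 and 0.0010), and its difference at 5 nM was -0.33 (adjusted p = 0.096). Probe set 202270_at, at 92.4, 122 and 138 in DMSO, was at 83.6, 83.5 and 67.0 at 0.1 nM, a difference of -0.49 ± 0.14 that was not called (limma, adjusted p = 0.11). Its 0.5 nM arrays, 130 and 88.0, overlapped DMSO. The calls at 0.5 nM, with 2 arrays, were lost for both probe sets when any 1 of these arrays or DMSO replicate 2 or 3 was left out. The 5 nM call was lost without DMSO replicate 2 or 3 or 5 nM replicate 1. With the 3′ to 5′ ratio described below as a covariate, the calls at 0.5 and 1 nM were lost for both probe sets, and those at 0.1 nM held. The changes with it were -0.55 ± 0.11 and -0.54 ± 0.11 at 0.5 nM and -0.43 ± 0.12 and -0.49 ± 0.13 at 1 nM, for 202269_x_at and 231577_s_at. GBP1 lies between its paralogs GBP3 and GBP2 on chromosome 1. Probe sets ending in _x_at or _s_at can match further transcripts, so signal from family members cannot be told apart there.

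IRF1, a transcription factor that activates GBP1 and other interferon targets and limits cell growth, had probe sets at different brightness with like changes. For 202531_at the arrays were 271, 341 and 312 in DMSO, 624, 639 and 659 at 500 nM and 627, 571 and 569 at 1000 nM. The high doses overlapped each other and lay above all other arrays, of which the highest was 389 at 10 nM. IRF1 rose by 1.02 ± 0.09 at 500 nM (limma, adjusted p = 1.7e-09) and by 0.90 ± 0.09 at 1000 nM (adjusted p = 6.4e-09). Probe set 238725_at was at 82.5, 95.7 and 93.3 in DMSO, 244, 239 and 191 at 500 nM and 279, 256 and 240 at 1000 nM, rises of 1.17 ± 0.11 and 1.37 ± 0.11. No dose up to 100 nM was called for either IRF1 probe set. The 10 nM arrays of 202531_at, at 348 to 389, lay above all DMSO arrays, with a difference of 0.23 (limma, adjusted p = 0.28).

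IRF7, the factor that amplifies type I interferon production, had its highest level at the highest dose. The arrays were 185, 217 and 269 in DMSO, 316, 325 and 231 at 500 nM and 425, 436 and 361 at 1000 nM. The 1000 nM group lay above every other array, while replicate 3 at 500 nM was within the range of DMSO. IRF7 rose by 0.83 ± 0.13 at 1000 nM (limma, adjusted p = 4.9e-06) and by 0.36 ± 0.13 at 500 nM (adjusted p = 0.028). The call at 500 nM was lost in 6 of 14 alternatives, among them leaving out DMSO replicate 1 or 2 or 500 nM replicate 1 or 2, and its change was 0.50 ± 0.13 without 500 nM replicate 3.

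**Figure D2:**
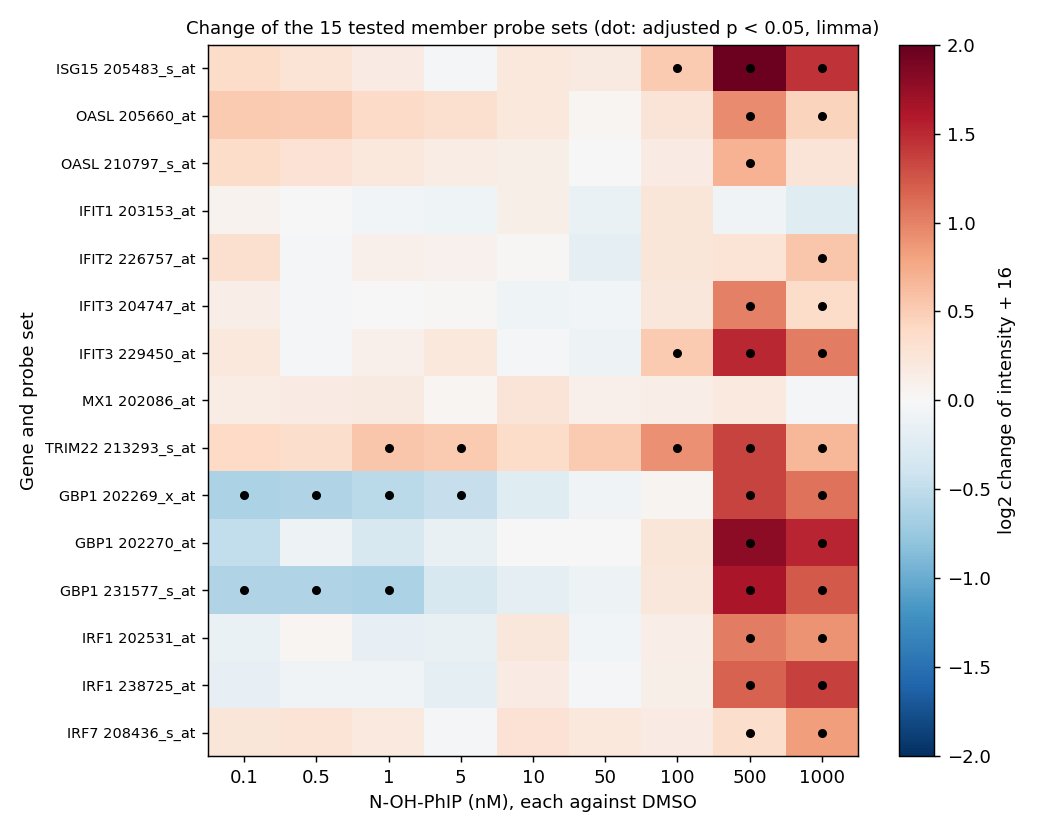
Log2 change from DMSO (colour) of the 15 tested member probe sets (rows) at each dose (columns), with dots where the adjusted p was under 0.05. Dots fill the 500 and 1000 nM columns for 12 probe sets each, TRIM22 has dots from 1 nM with gaps at 10 and 50 nM, and GBP1 has negative values with dots at 0.1 to 5 nM.

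Counted over doses, few members passed the test at 100 nM and below. At 0.1 and 0.5 nM the 2 calls each were falls of GBP1, where 0.487% and 0.033% of all tested probe sets fell. At 0.1 nM 8 of 15 members had an unadjusted p under 0.05 in limma, as did 3399 of all 27307 tested probe sets. Among these 8, ISG15, IFIT2, TRIM22 and both OASL probe sets were higher than in DMSO and the GBP1 probe sets lower. The counts at 0.5, 1, 5 and 100 nM were 4, 5, 4 and 4 of 15, beside 2919, 3518, 4146 and 4171 of all 27307. At 1 nM TRIM22 rose and 2 GBP1 probe sets fell, where 0.205% of all probe sets rose and 0.575% fell. At 5 nM TRIM22 rose and GBP1 202269_x_at fell, where 0.337% rose and 0.769% fell. At 10 and 50 nM limma called 0 of 15 members, and called 0.242% and 0.264% of all probe sets. There 5 and 1 members had an unadjusted p under 0.05 in limma, beside 3649 and 2415 of all 27307. At 100 nM TRIM22, ISG15 and IFIT3 229450_at rose, 3 of 15, where 1.37% of all tested probe sets rose and 1.53% fell. The 12 calls up to 100 nM became 5 without DMSO replicate 2.

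A comparison that does not use the DMSO arrays set the mean of 0.1, 0.5, 1 and 5 nM against that of 10, 50 and 100 nM. All 3 tested GBP1 probe sets were lower at the low doses, by -0.47 ± 0.05, -0.34 ± 0.08 and -0.52 ± 0.05 (limma, adjusted p = 1.6e-06, 0.0060 and 8.7e-07). Both IRF1 probe sets were lower by -0.21 (adjusted p = 0.012 and 0.021), and OASL 205660_at was higher by 0.26 (adjusted p = 0.023). That is 5 of 15 lower and 1 higher, where 6.63% and 3.78% of all tested probe sets were lower and higher. The IRF1 and OASL calls were each lost when certain single arrays were left out, while those of the 3 GBP1 probe sets held in all fits that left out an array. Actin and GAPDH control probe sets at the 3′ and 5′ ends of the transcript gauge RNA quality and labelling. Their mean log2 ratio, 3′ over 5′, was 1.17 ± 0.04 (SD) in DMSO, 1.22 to 1.35 at 0.1 to 5 nM and 1.15 to 1.16 at 10 to 100 nM. With that ratio as a covariate 3 of the 6 calls held, those of GBP1 202269_x_at and 231577_s_at and IRF1 238725_at. Its part in the result was not tested.

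Between 100 and 500 nM 11 of 15 member probe sets rose, where 17.8% of all tested probe sets rose and 17.9% fell. ISG15 rose by 1.44 ± 0.12 (limma, adjusted p = 1.1e-09), the GBP1 probe sets 2.48-fold to 2.93-fold, IRF1 1.86-fold and 2.08-fold, IFIT3 1.73-fold and 1.98-fold and OASL 1.60-fold and 1.45-fold. TRIM22 rose by 0.44 ± 0.12 (limma, adjusted p = 0.0052), a call that was lost when only these doses entered the fit and with the 3′ to 5′ ratio as covariate. IRF7, IFIT1, IFIT2 and MX1 were not called.

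From 500 to 1000 nM most members that had risen were lower again, and IRF7 was higher. Of 15 probe sets 8 fell, in 5 genes, and 1 rose, where 25.6% and 17.7% of all tested probe sets fell and rose. TRIM22 fell by 0.68 ± 0.12 (limma, adjusted p = 6.0e-05), IFIT3 by 0.64 ± 0.11 and 0.48 ± 0.13, ISG15 by 0.51 ± 0.12 (adjusted p = 0.0015), and OASL by 0.49 ± 0.13 and 0.44 ± 0.13. GBP1 fell by 0.41 ± 0.10 (231577_s_at) and 0.27 ± 0.09 (202269_x_at), and 202270_at, at -0.26 ± 0.14, was not called (limma, adjusted p = 0.15). The fall of 202269_x_at was lost without 500 nM replicate 2 or 1000 nM replicate 2.

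For the IRFs the values were otherwise. IRF7 rose by 0.48 ± 0.13 between these doses (limma, adjusted p = 0.0046), or by 0.33 ± 0.13 without 500 nM replicate 3. The IRF1 differences were -0.12 (95% interval -0.31 to 0.07) and 0.19 (-0.02 to 0.41), neither called, with adjusted p of 0.32 and 0.14 in limma. IFIT2 was at 0.28 ± 0.13, not called (adjusted p = 0.095), and it was called without 500 nM replicate 3, at 0.40 ± 0.14. For ISG15 the fall without that replicate was 0.70 ± 0.11, and 10 of 15 members were then called.

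**Figure D3:**
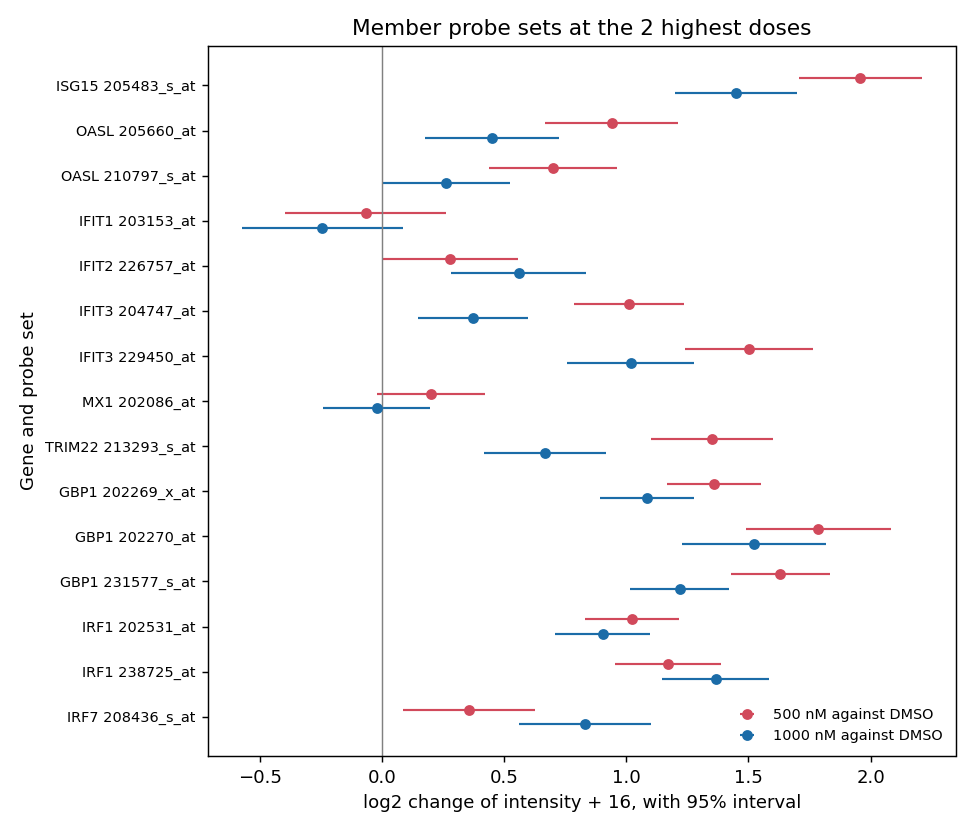
Log2 change from DMSO of the 15 tested member probe sets at 500 and 1000 nM, with 95% intervals from the limma fit. Values of ISG15, IFIT3, OASL, TRIM22 and GBP1 are larger at 500 nM, those of IRF7 and IFIT2 larger at 1000 nM, and those of IFIT1 and MX1 span 0 at both.

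Over the 26 treated arrays, 10 of 15 members had a called positive slope on log10 dose, and no member had a called negative slope. Of all tested probe sets 30.6% had a called positive slope and 28.9% a called negative one. GBP1 had the steepest slopes, 0.48 ± 0.05, 0.51 ± 0.06 and 0.53 ± 0.06 per 10-fold dose (log2, limma adjusted p of at most 1.6e-06). ISG15 had 0.35, IRF1 0.27 and 0.35, IFIT3 0.28 and 0.15, TRIM22 0.16 and IRF7 0.09. The IRF7 call was lost when any 1 of the 1000 nM arrays was left out. OASL, with its highest mean at 500 nM and its next highest at 0.1 nM, had slopes of 0.02 and was not called. The mean 3′ to 5′ ratio was 0.93 ± 0.08 at 500 nM and 0.84 ± 0.02 at 1000 nM, so it moved with dose. Actin alone carried that fall, from 2.20 ± 0.07 in DMSO to 1.67 ± 0.20 at 500 nM and 1.51 ± 0.04 at 1000 nM. GAPDH stood at 0.14 ± 0.01, 0.20 ± 0.04 and 0.17 ± 0.01 in the same order, with no fall. Separate covariates for actin and GAPDH were not tested. With the mean ratio as a covariate limma called 0 slopes, 4 at an unadjusted p under 0.05, and IRF7's slope was -0.014.

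At single doses more calls held with that covariate, for which the shares over all tested probe sets were not counted. At 500 nM 11 of 15 were called, and ISG15 was at 2.07 ± 0.19. IRF7 was not called there, at 0.52 ± 0.21, a larger change than without the covariate and with a larger error. At 1000 nM 9 of 15 were called, and the calls of TRIM22, IFIT2 and IFIT3 204747_at were lost. TRIM22 was at 0.25 ± 0.22 and IFIT2 at 0.30 ± 0.26, smaller changes than without the covariate. IFIT3 204747_at was at 0.44 ± 0.22, a larger change, with an error that had grown from 0.11. ISG15 was then at 1.61 ± 0.24 and IRF7 at 1.06 ± 0.26.

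Over the 29 arrays ISG15 correlated with IFIT3 229450_at at r = 0.932, with IRF1 202531_at at 0.914 and with the GBP1 probe sets at 0.885 to 0.887. With IFIT1 it correlated at -0.129 and with MX1 at 0.055. These points share the dose groups, so the values describe the dose pattern and carry no p. Of 12174 genes, those outside the members most like ISG15 were HES2 (r = 0.977), TAP1 (0.968), PTAFR (0.967), ZNF79 (0.965) and MCAM (0.965). TAP1 is a peptide transporter for antigen presentation and itself an interferon target. Most like IRF1 202531_at were CITED2 (0.978), TENT5B (0.977), KRT8 (0.970), CCT3 (0.969) and DKK1 (0.967).

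The rest of the pathway was read from lists, with 1 probe set a gene, for which 25.2% of 12174 genes rose and 24.8% fell at 500 nM, and 27.3% rose and 35.8% fell at 1000 nM. The lists too were chosen with earlier results of these data known, so their counts are descriptions. Of 52 other interferon-stimulated genes listed, 48 had a probe set of their own and 40 were tested. At 500 nM 20 rose and 2 fell, with a median log2 change of 0.20 beside 0.01 over all genes. At 1000 nM 14 rose and 13 fell, with a median of -0.09 beside -0.04. From 500 to 1000 nM 4 rose and 17 fell, where 15.4% and 31.8% of all genes did.

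PML, the scaffold of nuclear bodies, rose by 1.21 ± 0.12 at 500 nM and 0.83 ± 0.12 at 1000 nM. IFITM1, a membrane protein that blocks viral entry, rose by 1.13 ± 0.09 and 1.54 ± 0.09, and ISG20, an exonuclease, by 0.99 ± 0.13 and 0.66 ± 0.13. SAMD9L, a restriction factor, fell by 0.76 ± 0.19 and 0.95 ± 0.19, and its intensities were 77.9 ± 18.5 in DMSO and 33.6 ± 15.2 at 1000 nM (SD, n = 3). DDX60, a helicase linked to RNA sensing, was at -0.13 ± 0.09 at 500 nM, not called, and fell by 0.98 ± 0.09 at 1000 nM. The antiviral genes RSAD2, OAS1, OAS2, MX2, IFI44L, XAF1, CMPK2 and RTP4 were under the level minimum and were not tested.

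Of 20 genes listed as interferon-gamma type or guanylate-binding, 11 were tested, of which 7 rose and 1 fell at 500 nM and 6 rose and 3 fell at 1000 nM. TAP1 rose by 1.13 ± 0.09 and 0.77 ± 0.09, GBP3, a neighbour of GBP1, by 1.03 ± 0.14 and 0.62 ± 0.14, and APOL2 by 0.66 ± 0.05 and 0.59 ± 0.05. GBP3 also fell from 500 to 1000 nM, by 0.41 ± 0.14. APOL2 was called at 100 nM, at 0.25 ± 0.05.

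Among nucleic acid sensors and their adaptors, 17 of 21 listed genes were tested, and 13 rose and none fell at 500 nM. At 1000 nM 7 rose and 3 fell. STING1, the adaptor of the cytosolic DNA sensor, had intensities of 76.8 ± 12.3 in DMSO, 156 ± 17.3 at 500 nM and 102 ± 8.97 at 1000 nM (SD, n = 3), and rose by 0.90 ± 0.12 and 0.35 ± 0.12 (log2, SE). TLR3, an endosomal sensor of double-stranded RNA, rose by 0.68 ± 0.11 at 500 nM and was at 0.18 ± 0.11 at 1000 nM, not called.

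In the JAK-STAT list 12 of 14 genes were tested, 4 rose and 1 fell at 500 nM, and 7 rose and 2 fell at 1000 nM. SOCS3, a feedback inhibitor, rose by 1.21 ± 0.10 and 1.45 ± 0.10 and STAT3 by 0.69 ± 0.10 and 0.49 ± 0.10. IRF9, the partner of the STATs at the response element, was at 0.22 ± 0.11 and 0.06 ± 0.11, neither called (limma, adjusted p = 0.12 and 0.69). Of the other interferon regulatory factors 4 of 7 were tested. IRF2 rose by 0.35 ± 0.11 at 500 nM and fell by 0.30 ± 0.11 at 1000 nM, and IRF5 rose by 0.40 ± 0.11 at 500 nM.

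Interferons themselves were dim. All 9 ligands measured, of type I, II and III, were under the level minimum and were not tested, and IFNB1 had intensities of 21.7 ± 4.60 (SD, n = 3) in DMSO, 11.6 ± 1.26 at 500 nM and 12.7 ± 3.33 at 1000 nM. Detection calls were not used here, so a level under the minimum is not shown to be absent. All 6 tested genes of the list were receptor chains, of which 2 rose and none fell at 500 nM, and none rose and 5 fell at 1000 nM. IFNAR1, a chain of the type I receptor, was at 0.06 ± 0.08 at 500 nM, not called, and fell by 0.27 ± 0.08 at 1000 nM. IL10RB, shared by the type III receptor, fell by 0.63 ± 0.08 at 1000 nM.

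**Figure D4:**
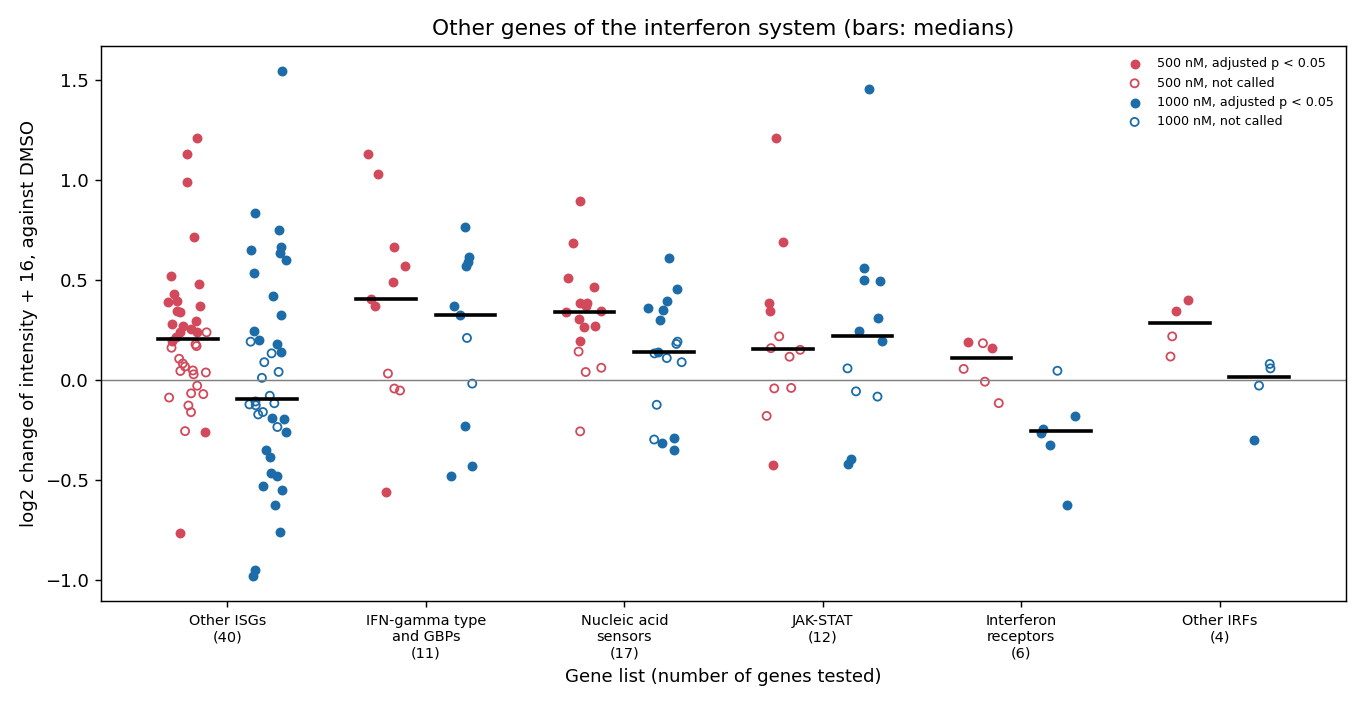
Log2 change from DMSO at 500 and 1000 nM of the tested genes of each pathway list (points, 1 probe set a gene) with the list's median (bar). The sensors and interferon-gamma type genes have medians of 0.34 and 0.41 at 500 nM and 0.14 and 0.32 at 1000 nM, and the other interferon-stimulated genes 0.20 and -0.09.

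The tissue label was checked with marker genes. Of 8 epithelial markers measured 7 were above the minimum, and their summed intensity was 21010 to 21801 in DMSO, 25427 to 29112 at 500 nM and 24256 to 25967 at 1000 nM, while KRT14 was under it. Of 15 leukocyte markers 3 were above it, CD74, CORO1A and CD14, with PTPRC, the pan-leukocyte marker, at 9.24 in DMSO and 9.03 at 500 nM. Summed leukocyte markers were 741 to 757 in DMSO, 887 to 1121 at 500 nM and 992 to 1050 at 1000 nM. Of the 3 tested, 2 rose at 500 nM and 3 at 1000 nM, where 25.2% and 27.3% of all genes rose. Among them CD74, which is itself induced by interferon gamma, rose by 0.52 ± 0.09 and 0.51 ± 0.09. None of 5 endothelial markers and 1 of 6 fibroblast markers, COL1A1, reached the minimum. The fibroblast sums were 637 to 719 in DMSO, 1000 to 1159 at 500 nM and 815 to 901 at 1000 nM. The part of any of these in the members' changes was not tested.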

How the data were processed

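RNA from 29 BEAS-2B cultures was measured on a 3′ expression array. Per the labels' protocols, a NuGEN Ovation kit amplified 40 ng of total RNA, which was labelled with biotin for hybridisation. The authors deposited an intensity for each probe set, on a linear scale and already at a common level over arrays, with GCOS named per the submitters' processing notes and the normalization method not given in the sources used here. Detection calls were not used, and the number of arrays limits the precision.

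Symbols came from the array's annotation, in which 41091 probe sets had 1 symbol, 1801 several and 11721 none. Control probe sets (62) were left out. Values were log2(intensity + 16). The 27307 probe sets (12174 genes) with a mean at or above the median were tested with limma 3.58.1 (R 4.3.3) in a fit of all 10 groups with 19 residual degrees of freedom, moderated variances that follow the mean level (eBayes, trend) and two-sided tests. The dose trend was fitted over the 26 treated arrays. Figures used matplotlib 3.10.9. The code was tested on simulated data.

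All members were named, with up to 4 called genes of largest change from each list and dose as candidates, IRF9, IFNB1 and IFNAR1 always, and the 5 genes most like ISG15 and IRF1. Members and lists were chosen with earlier results of these data known, lists overlap, and no list test was run. RSAD2 and the other untested genes listed with it were named after their values were seen. Alternatives were quantile normalization or median centring, an offset of 1, dropping the filter or raising it to the upper 25%, a replicate block, moderation without the trend, the 3′ to 5′ ratio as covariate, a fit of only the groups compared, a 1.5-fold minimum, other dose scales for the trend and leaving out each array. A planned comparison of protein sequences was not run.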

Additional observations from a re-analysis of the deposited data

How the results depend on the processing

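The counts of called member probe sets moved little under quantile normalization, median centring, an offset of 1, a dropped filter or moderation without the trend. Replicate numbers showed no general pairing: of 126 pairs of same-numbered arrays 37 correlated above 0.1, with a median of 0.014. The pairs ran from -0.52 to 0.75, the highest for replicate 3 of 5 and 500 nM. Shared handling of particular arrays was not tested. With the replicate block 12 members were called at 1000 nM, 12 at 500 nM, 13 over 0.1 to 100 nM, 9 for 1000 against 500 nM, 11 for 500 against 100 nM, 10 in the trend and 6 for low against middle doses, with 23 and 28 other interferon-stimulated genes at 500 and 1000 nM. Keeping the upper 25% of mean level left 4 member probe sets to test in a comparison, or 28 tests over 0.1 to 100 nM. It gave 4 calls of 4 at 1000 nM, 3 of 4 at 500 nM and 4 of 28 over 0.1 to 100 nM. For 1000 against 500 nM 2 of 4 were called, and for 500 against 100 nM 3 of 4. In the trend 3 of 4 were called, and for low against middle doses 1 of 4. The shares over all probe sets with that filter were not counted. A 1.5-fold minimum gave 6 calls over 0.1 to 100 nM, 2 for 1000 against 500 nM, 0 in the trend (10 at an unadjusted p under 0.05 in limma) and 0 for low against middle doses (8 at an unadjusted p under 0.05), and 5 and 11 other interferon-stimulated genes at 500 and 1000 nM. With the 3′ to 5′ ratio as covariate, 0 trends (4 at an unadjusted p under 0.05 in limma) and 3 low-against-middle differences were called, and the IRF7 slope turned from 0.093 to -0.014. With only DMSO and 500 nM in the fit 13 other interferon-stimulated genes were called at 500 nM, against 22. The cause of these shifts was not tested beyond the fewer features or samples that a setting leaves. Leaving out each array in turn gave 12 to 12 calls at 1000 nM, 11 to 12 at 500 nM, 5 to 13 over 0.1 to 100 nM (5 without DMSO replicate 2), 8 to 10 for 1000 against 500 nM, 11 to 12 for 500 against 100 nM, 4 to 6 for low against middle doses and 9 to 10 in the trend. The other interferon-stimulated genes gave 19 to 25 at 500 nM and 22 to 26 at 1000 nM. Of single member values, 43 lost and 3 gained their call when an array was left out, against 920 that kept their side, and over the other settings 24 lost, 2 gained, 1 turned and 726 kept it. The 3 DMSO arrays enter every comparison with a dose, no detection call was used, and dim probe sets have changes that depend on the offset.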
